A study of Mus musculus with 16 samples.

Results

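Insulin-like growth factors, the receptors that bind them and the adaptors that those receptors use were followed in 16 RNA-seq libraries of the neonatal mouse cochlea. The set comprised 8 genes, chosen by name: the ligands Igf1 and Igf2, the noncoding RNA H19 of the Igf2 locus, the receptors Igf1r, Insr and Igf2r, and the adaptors Irs1 and Irs2. All 8 were found by symbol among the 47729 genes with values in every library, and all 8 were among the 16994 genes that passed a filter on low values. To pass, a gene needed 0.5 CPM (reads of the gene for every 1000000 counted reads) or more in each of the 4 replicates of some group. No member was at 0 in any library, and the fewest reads behind a member's value were the 153 reads of Irs1 in a Control IP library.

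The control group was GLAST CreERT/+; Rpl22 HA/+ and the DTR group was Lgr5 DTR/+; GLAST CreERT/+; Rpl22 HA/+, both harvested at postnatal day 4. Both genotypes therefore carried the inducible Cre, driven by the promoter of the glutamate transporter GLAST, and an HA-tagged ribosomal protein that Cre switches on. Only the DTR mice carried the diphtheria toxin receptor at the Lgr5 locus, through which diphtheria toxin removes LGR5+ supporting cells. The methods of the study give diphtheria toxin and tamoxifen at postnatal day 1 to both genotypes, whereas the sample labels call the controls untreated. Each of the 8 replicate pools held cochleae of several mice, from which the ganglion, the lateral wall and Reissner's membrane had been dissected away, so a library is an average over animals. From each homogenate 5% was kept as input and the remaining 95% was immunoprecipitated with an anti-HA antibody (IP), which gave 4 groups of 4 libraries. Input holds RNA of all cells of the dissected cochlea, and IP is meant to hold RNA bound to tagged ribosomes of cells in which Cre had acted.

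Insulin-like growth factors are secreted hormones that act through the receptor tyrosine kinase IGF1R and, with lower affinity, through the related insulin receptor. The activated receptors phosphorylate IRS adaptors, which recruit PI3 kinase and so feed the AKT and TOR branches of growth control, whereas IGF2R has no kinase and carries IGF2 to lysosomes. Igf2 and H19 are neighbours that share enhancers and are imprinted in opposite senses, Igf2 being expressed from the paternal and H19 from the maternal chromosome. In the inner ear, IGF1 is best known because its loss causes sensorineural deafness in mice and in people.

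Reads counted per library ranged from 28089836 to 41966310. Lgr5 had 63.3 ± 3.03 CPM in Control input and 15.9 ± 3.69 CPM in DTR input (SD, n = 4; adjusted p = 2.2e-08, limma), and its log2 fold change in IP was -1.93 (adjusted p = 3.5e-08). Slc1a3, which encodes GLAST, was not higher in IP than in input: its log2 fold change was -0.20 in control (adjusted p = 0.1) and -0.27 in DTR (adjusted p = 0.03). The summed level of 10 hair cell markers was 607 to 832 CPM in Control input and 223 to 292 CPM in Control IP. Of these markers 9 were lower in Control IP and 1, Atoh1, was higher (log2 fold change 0.86, adjusted p = 0.0083). For the organ of Corti supporting cell list of 8 genes the same sums were 672 to 747 CPM and 909.8 to 1044 CPM, with 4 genes higher in Control IP, 2 lower and 2 not called. The sums moved mostly with Lfng (74.5 and 279 CPM) and Fabp7 (248 and 368 CPM), both higher, while Lgr5 and Fgfr3 were the lower genes, with log2 fold changes of -0.80 and -0.58. Atoh1, Lfng, Fabp7 and Fgfr3 were named after their values were seen. Summed neuron markers, in contrast, varied widely between the replicates of a group, from 77.0 to 699 CPM in DTR input, and were lowest in replicate 4 of every group.

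H19 and Igf2 lie on the minus strand of chromosome 7, at chr7:142575529-142578143 and chr7:142650766-142666816 (GRCm38), and the gap between them is 72.6 kb. Each gene holds a microRNA, and both microRNAs are shown because reads of the hairpins could have been counted with the host, apart from it or not at all. Hairpin positions are from RefSeq (GRCm38.p6) and transcripts from GENCODE M21. The Mir675 hairpin, chr7:142577064-142577147, lies inside an exon of 3 of the 7 annotated H19 transcripts, and the Mir483 hairpin, chr7:142654924-142654996, lies in introns of Igf2. The mature sequences follow, 5′ to 3′, with the seed (bases 2 to 8) in capitals.
mmu-miR-675-5p: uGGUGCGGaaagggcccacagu
mmu-miR-675-3p: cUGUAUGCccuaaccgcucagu
mmu-miR-483-5p: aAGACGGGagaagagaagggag
mmu-miR-483-3p: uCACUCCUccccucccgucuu
The 4 seeds differ from one another. As separate genes, Mir675 was listed at 0 reads in all 16 libraries and Mir483 reached at most 3 reads, which says nothing of the mature microRNAs, since the library kit starts from longer RNA.

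The nCounter probe that the study designed for Igf2 in a second assay (not analysed here) is shown because it is shared by 7 of the 9 annotated Igf2 transcripts and so marks the coding part that they have in common. Its 100 bases lie wholly in coding sequence, and the 72 bases in capitals belong to one exon while the rest belong to the next. The pieces map to chr7:142655654-142655725 and chr7:142654421-142654448.
Igf2 probe: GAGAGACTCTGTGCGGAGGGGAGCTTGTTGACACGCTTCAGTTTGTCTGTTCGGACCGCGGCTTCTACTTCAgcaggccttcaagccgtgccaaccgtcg
One annotated readthrough transcript, Gm49394, also contains the whole probe and covers 62.8% of the exonic bases of Igf2. It was not used here as a separate gene, so the Igf2 count cannot be told apart from it.

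RefSeq places 4 start sites in Igf2, and the 250 bases before the one nearest the coding exons are printed because Igf2 is the ligand that differed most between fractions. The stretch is chr7:142657497-142657746 (GRCm38.p6, minus strand), and the capitals mark matches to the GC box GGGCGG on either strand.
Igf2 promoter: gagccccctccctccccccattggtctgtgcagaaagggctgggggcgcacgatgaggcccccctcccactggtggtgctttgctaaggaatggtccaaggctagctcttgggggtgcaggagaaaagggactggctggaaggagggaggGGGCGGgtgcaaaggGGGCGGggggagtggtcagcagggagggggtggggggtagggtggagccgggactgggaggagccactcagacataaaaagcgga
The 2 matches begin 100 and 85 bases before the start. The motif was found in 2 of the 4 Igf2 windows and in 6 of the 9 windows of the 6 members with an entry, against 32.7% of all 32851 windows of that length. The share of G and C was 66% to 77.6% in the member windows with a match and 47.6% to 52.8% in the others. Its median over all windows was 52.4%. The forkhead core GTAAACA (3.17% of all windows) and the Egr1 motif GCGTGGGCG (0.536%) were in none of the 9. These are matches of letters, and no value here bears on binding.

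Igf2 and H19 were far more abundant in IP than in input, in both genotypes. Igf2, a fetal growth hormone, had 309, 339.9, 337 and 319 CPM in Control input and 4386, 3762, 3479 and 3149 CPM in Control IP, replicates 1 to 4. In DTR input it had 430.3, 437, 460 and 372 CPM, and in DTR IP 4351, 4989, 6255 and 4064 CPM. Every IP library was thus above every input library, and after quantile normalization the lowest IP value was 8.41 times the highest input value in control and 8.12 times in DTR. The log2 fold change of IP against input was 3.49 ± 0.14 (SE) in control (adjusted p = 4.8e-12, limma) and 3.33 ± 0.14 in DTR (adjusted p = 7.3e-12). By mean CPM it was the 11th gene in Control IP and the 9th in DTR IP, against 372nd and 239th in the inputs. In DTR IP, 0.491% of all counted reads were Igf2 reads. In such bulk samples fewer cells of a type and less RNA per cell cannot be told apart, for this and every later difference.

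H19, a long noncoding RNA with no known protein product, was read at 174, 205, 173 and 183 CPM in Control input and at 3756, 2928, 2394 and 2154 CPM in Control IP. In DTR input it had 263, 191, 247 and 207 CPM, and in DTR IP 3812, 3794, 5308 and 3488 CPM. The lowest normalized IP value was 10.3 times the highest input value in control and 11.6 times in DTR. The log2 fold change was 3.89 ± 0.16 in both, with adjusted p = 6e-12 in control and 6.7e-12 in DTR. Only 4 of the 16994 genes tested had a higher value in each of these comparisons, which places a noncoding RNA 5th in each. Igf2 ranked 11th in control and 17th in DTR.

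**Figure D1:**
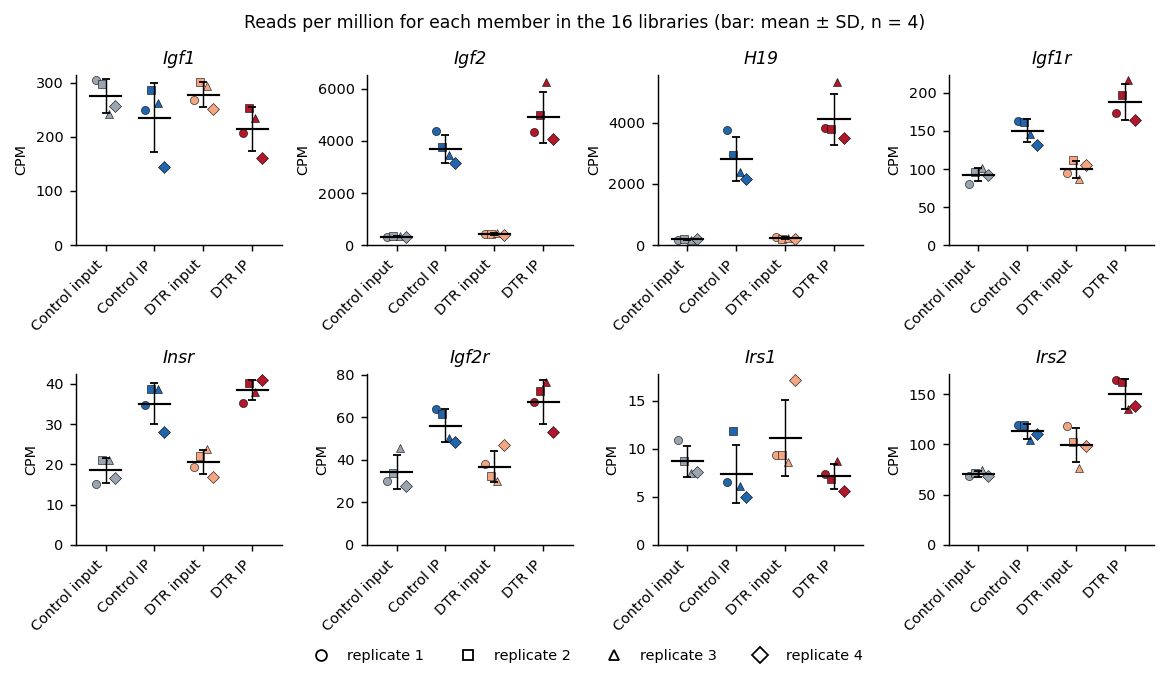
CPM of each member (vertical axis, from 0, a scale of its own per gene) in the 4 groups (horizontal axis), with 1 symbol per replicate and bars for the mean ± SD of 4 libraries. Igf2 and H19 stand far above input in every IP library, the receptors and Irs2 are higher in IP by a smaller step, and Igf1 and Irs1 overlap between fractions.

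The ratio of H19 to Igf2, each in CPM per kb of exon, was itself higher in IP. It was 1.31 ± 0.0869 in Control input and 1.75 ± 0.191 in Control IP (SD, n = 4), and 1.25 ± 0.168 in DTR input and 1.94 ± 0.120 in DTR IP. All 4 IP libraries were above all 4 input libraries in both genotypes (p = 0.029, exact two-sided permutation test, the smallest p that 4 against 4 allow). Among 20 such tests on 5 ratios, with input and IP taken as independent, the adjusted p was 0.082. Within homogenates the ratio was higher in IP in 4 of 4 pairs of each genotype (p = 0.125, exact sign-flip test, the smallest p that 4 pairs allow). Between DTR IP and Control IP the ratio overlapped (p = 0.2, exact permutation test).

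Igf1, the other ligand (chr10:87858265-87937042, plus strand, GRCm38), showed no such step. Its CPM were 306, 298, 242 and 257 in Control input and 250.2, 286, 263 and 144 in Control IP. In DTR input they were 267, 301, 294 and 251, and in DTR IP 208, 254, 235 and 161. Input and IP overlapped in both genotypes, and replicate 4 was the lowest IP library in each. The log2 fold change was -0.19 ± 0.17 in control (adjusted p = 0.42, limma; approximate 95% interval from -0.52 to 0.15) and -0.31 ± 0.17 in DTR (adjusted p = 0.16). Without replicate 4 of Control IP the control value was 0.03. In a fit with a block for the replicate number the DTR difference reached an adjusted p of 0.05, on the called side of the threshold before rounding.

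Because the ligands differed in this way, the make-up of the ligand RNA was not alike in the fractions. Of the summed level of Igf1 and Igf2 in CPM per kb, Igf2 took 67.2% ± 3.01 in Control input and 96.5% ± 0.80 in Control IP (SD, n = 4). In DTR it took 72.5% ± 0.955 of input and 97.5% ± 0.35 of IP. The ratio of Igf2 to Igf1 was 2.07 ± 0.283 in Control input and 28.5 ± 7.22 in Control IP, and 2.64 ± 0.127 in DTR input and 40.0 ± 5.78 in DTR IP. Each fraction differed without overlap (p = 0.029 in both genotypes, exact permutation test), and so did DTR input from Control input (p = 0.029), all with an adjusted p of 0.082. The tests between fractions took input and IP as independent. Within homogenates the ratio was higher in IP in 4 of 4 pairs of each genotype (p = 0.125, exact sign-flip test).

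**Figure D2:**
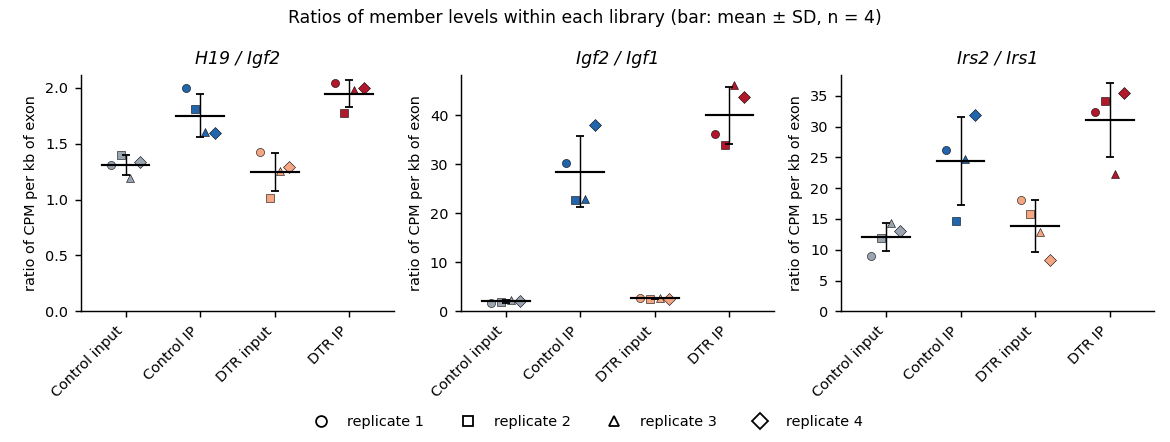
Ratios of CPM per kb of exon within each library (vertical axis, from 0) for H19 over Igf2, Igf2 over Igf1 and Irs2 over Irs1 in the 4 groups, with 1 symbol per replicate and bars for mean ± SD, n = 4. All 3 ratios are higher in each IP group than in its input with no overlap, and Igf2 over Igf1 has the largest step, from 2.07 to 28.5 in control.

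The 3 receptors were each higher in IP by less than 1 log2 unit. Igf1r (chr7:67952827-68233668), which encodes the signalling receptor for both ligands, had 80.9, 96.7, 101 and 91.6 CPM in Control input and 163, 162, 146 and 132 CPM in Control IP. It had 94.8, 111, 87.1 and 105 CPM in DTR input and 174, 197, 217 and 165 CPM in DTR IP. IP and input did not overlap in either genotype, and the log2 fold change was 0.72 ± 0.11 in control (adjusted p = 3.9e-05, limma) and 0.96 ± 0.11 in DTR (adjusted p = 1.9e-06).

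Insr (chr8:3122061-3279617), the insulin receptor, had 15.1, 21.2, 21.2 and 16.6 CPM in Control input against 34.9, 38.8, 38.7 and 28.0 CPM in Control IP. In DTR the values were 19.3, 22.0, 23.9 and 17.0 CPM in input and 35.2, 40.2, 37.9 and 40.9 CPM in IP. The fractions were again apart in every library, by a log2 fold change of 0.90 ± 0.15 in control (adjusted p = 8.7e-05) and 0.86 ± 0.15 in DTR (adjusted p = 0.00016). Insulin itself was nearly unread: Ins1 had 0 reads in all libraries and Ins2 at most 5.

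Igf2r (chr17:12682406-12769664), the receptor that clears IGF2, had 30.2, 33.8, 45.4 and 27.6 CPM in Control input and 64.0, 61.8, 50.4 and 48.4 CPM in Control IP. Its values were 37.9, 32.2, 30.2 and 46.7 CPM in DTR input and 67.2, 72.3, 76.8 and 52.9 CPM in DTR IP. The lowest IP library lay just above the highest input library in both genotypes (1.10 times in control on the normalized scale, 1.17 times in DTR). The log2 fold change was 0.71 ± 0.16 in control (adjusted p = 0.0014) and 0.85 ± 0.16 in DTR (adjusted p = 0.00033).

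Igf1r exceeded Insr per kb by 4.13 ± 0.369 times in Control input and 3.54 ± 0.367 times in Control IP, and by 4.05 ± 0.847 and 4.01 ± 0.568 times in the DTR fractions. Igf2r stood at 0.664 ± 0.111, 0.671 ± 0.0368, 0.668 ± 0.122 and 0.644 ± 0.0502 of Igf1r in the same order. With input and IP taken as independent, none of the 8 tests on these ratios passed (exact permutation p from 0.11 to 1). Input and IP of a number share a homogenate, however, and within homogenates Igf1r over Insr was lower in IP in 4 of 4 control pairs, by a mean log2 difference of -0.22 ± 0.09 (SD, n = 4 pairs; p = 0.125, exact sign-flip test, the smallest p that 4 pairs allow). In DTR it was lower in 2 of 4 pairs, with a mean of -0.00058 ± 0.518. Igf2r over Igf1r was higher in IP in 3 of 4 control pairs and 2 of 4 DTR pairs.

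The adaptors parted. Irs2 (chr8:10984681-11008458), the adaptor best known from pancreas and liver, had 68.2, 71.7, 74.4 and 68.3 CPM in Control input and 119, 119.8, 104 and 110.5 CPM in Control IP. In DTR it had 118, 103, 76.9 and 98.8 CPM in input and 164, 162, 135 and 139 CPM in IP. IP was above input in every library of the same genotype, by a log2 fold change of 0.68 ± 0.11 in control (adjusted p = 5.1e-05) and 0.63 ± 0.11 in DTR (adjusted p = 0.00013).

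Irs1 (chr1:82233101-82291416), the first described insulin receptor substrate, was the least abundant member and was not higher in IP. It had 10.96, 8.70, 7.47 and 7.61 CPM in Control input and 6.55, 11.8, 6.08 and 5.00 CPM in Control IP. In DTR input it had 9.39, 9.34, 8.66 and 17.1 CPM, and in DTR IP 7.33, 6.87, 8.78 and 5.66 CPM. The fractions overlapped in both genotypes, and replicate 4 of DTR input stood apart from the rest of its group. The log2 fold change was -0.20 ± 0.23 in control (adjusted p = 0.53) and -0.54 ± 0.23 in DTR (adjusted p = 0.065). The DTR difference was called with the replicate block (adjusted p = 0.049) and with DESeq2 (adjusted p = 0.037), and without replicate 4 of DTR input it was -0.32 (adjusted p = 0.24).

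Counted together, 6 of 8 members were higher in Control IP than in Control input and none was lower, where 39.9% of all genes tested were called, 19.3% higher and 20.7% lower. In DTR IP against DTR input it was again 6 of 8, where 39.2% of all genes were called, 18.6% higher and 20.5% lower. The CPM of those 6 did not overlap between fractions, which was so, in the higher direction, for 17.2% of all genes in control and 16.7% in DTR. The median log2 fold change over the 8 was 0.71 in control and 0.85 in DTR, beside -0.0012 and -0.03 over all genes tested. Under the criteria of the study for enrichment (log2 fold change of at least 2, a mean above the median gene and a lowest IP value above 1.5 times the highest input value) only Igf2 and H19 qualified. Applied here to limma calls, where the study used DESeq2, these criteria were met by 0.535% of genes in control and 0.506% in DTR. These shares are therefore not the study's own counts. For the receptors and Irs2 the step was smaller than the least change those criteria accept.

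**Figure D3:**
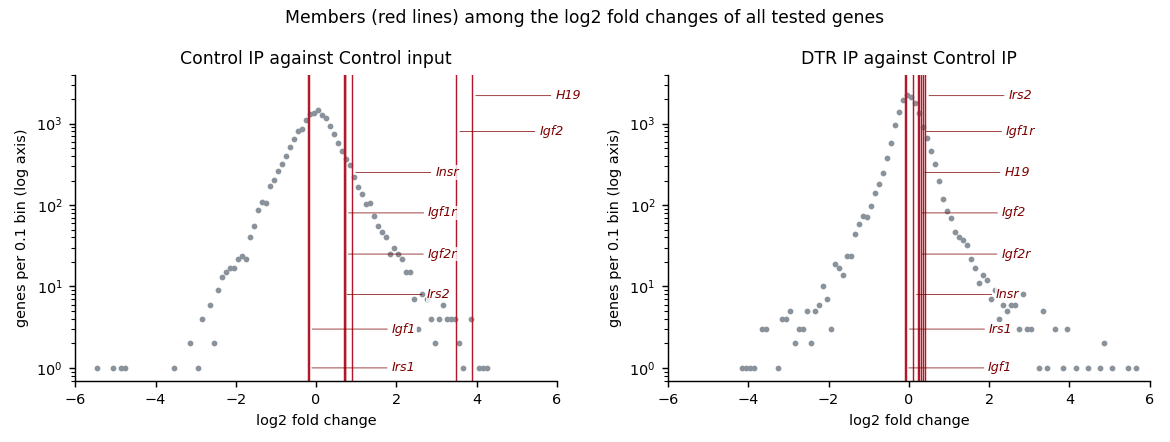
Number of genes per 0.1 bin (vertical axis, log scale) at each log2 fold change (horizontal axis) over the 16994 genes tested, as grey points, with members as red lines. Against Control input (left) H19 and Igf2 lie in the far upper tail at 3.89 and 3.49 while Igf1 and Irs1 lie near 0, and against Control IP (right) all 8 lie between -0.09 and 0.41.

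After loss of the LGR5+ cells the same 8 genes changed little. Irs2 was the only member called in both fractions, and it was higher in DTR. In IP its 4 DTR values (135 to 164 CPM) lay above the 4 control values (104 to 119.8 CPM), with a log2 fold change of 0.41 ± 0.11 (adjusted p = 0.012, limma). In input the DTR values (76.9 to 118 CPM) also lay above the control values (68.2 to 74.4 CPM), with 0.46 ± 0.11 (adjusted p = 0.0062). The IP difference fell just short of the threshold with edgeR on recovered reads (adjusted p = 0.054).

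Igf1r was called in IP, where 165 to 217 CPM in DTR lay above 132 to 163 CPM in control, with a log2 fold change of 0.35 ± 0.11 (adjusted p = 0.036, limma). That call was lost with edgeR (adjusted p = 0.16), with DESeq2 (adjusted p = 0.13) and after correction for gene length (log2 fold change 0.18, adjusted p = 0.24). It was also lost without replicate 2 or replicate 3 of DTR IP, or without replicate 3 or replicate 4 of Control IP (adjusted p from 0.071 to 0.11). In input Igf1r overlapped between genotypes, with 0.10 ± 0.11 (adjusted p = 0.65).

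Igf2 was higher in every DTR input library (372 to 460 CPM) than in any Control input library (309 to 339.9 CPM), with a log2 fold change of 0.40 ± 0.14. This difference had an adjusted p of 0.067 by limma, an adjusted p of 0.012 with a block for the replicate number, and 0.0072 when only the input libraries were fitted. Between genotypes that block joins different pools of the same number, a pairing that no source states. In IP the groups overlapped, and the difference was 0.24 ± 0.14 (adjusted p = 0.27).

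H19 overlapped between genotypes in both fractions. Its log2 fold change was 0.31 ± 0.16 in IP (adjusted p = 0.21) and 0.31 ± 0.16 in input (adjusted p = 0.26). The IP difference passed the threshold without quantile normalization, at 0.56 (adjusted p = 0.027), and with DESeq2, at 0.48 (adjusted p = 0.021), as it did without replicate 1 of Control IP, at 0.47 (adjusted p = 0.039). As deposited, H19 averaged 2808 CPM in the control IPs and 4101 CPM in those of DTR mice, and after quantile normalization 2733 and 3299 CPM.

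Igf1, Insr, Igf2r and Irs1 were called in neither fraction. In IP their log2 fold changes were -0.09 ± 0.17 for Igf1, 0.10 ± 0.15 for Insr, 0.23 ± 0.16 for Igf2r and -0.08 ± 0.23 for Irs1, with adjusted p from 0.36 to 0.87. In input they were 0.03 ± 0.17, 0.14 ± 0.15, 0.10 ± 0.16 and 0.27 ± 0.23 in that order, with adjusted p from 0.54 to 0.95. The approximate 95% intervals of these 8 differences lay between -0.52 and 0.71, with both of these outer bounds from Irs1.

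In DTR IP against Control IP, 2 of 8 members were called, both higher, where 15.7% of all genes tested were called, 8.44% higher and 7.3% lower. In DTR input against Control input 1 of 8 was called, where the shares were 12.4%, 7.17% and 5.21%. Groups did not overlap for 2 of 8 members in IP (Igf1r and Irs2) and 2 of 8 in input (Igf2 and Irs2), all higher in DTR, beside 10.5% and 11.6% of all genes. No member met the criteria of the study for a change after damage, an absolute log2 fold change of at least 1 with separated groups. Applied here to limma calls, these criteria were met in IP by 1.12% of genes as higher and 1.34% as lower, and in input by 1.34% and 1%. The direct test of whether the change after damage differed between IP and input called 0 of 8 members by limma, edgeR and DESeq2, and 0 of 8 had an unadjusted p under 0.05 by any of these tools. Over all genes limma called 2 (0.0118%) in that test, edgeR 0 and DESeq2 49, and 5.12% had an unadjusted p under 0.05 by limma. With the replicate block 40 genes were called, among them 0 of 8 members.

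**Figure D4:**
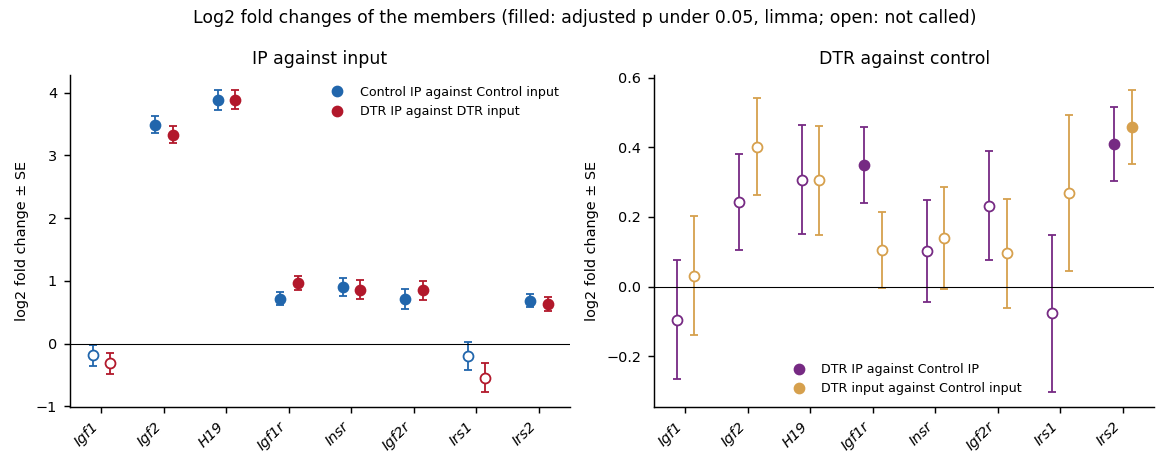
Log2 fold change ± SE (vertical axis) of the 8 members (horizontal axis) for IP against input (left) and DTR against control (right), fitted by limma over 16 libraries, with filled points for adjusted p under 0.05. On the left 6 members are called in both genotypes, and on the right, on a finer scale, only Irs2 in both fractions and Igf1r in IP are called.

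Markers of other cells moved with both comparisons. Between Control input and Control IP the summed level of 8 macrophage markers went from 122 to 133 CPM in input to 20.7 to 33.3 CPM in IP, with 8 of 8 lower, and Csf1r was at 36.6 and 4.76 CPM. For 10 mesenchyme markers the sums were 7859 to 8485 CPM and 5139 to 6370 CPM, with 6 of 10 lower and none higher, and Col1a2 was at 2374 and 1625 CPM. In IP 6 of 7 Schwann cell markers, 5 of 6 endothelial markers and 4 of 4 tested red blood cell markers were lower as well. None of the markers in these lists was at 0 in any library, and of the neuron markers Neurod1 was at 0 in 4.

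After damage, 7 of 8 supporting cell markers were lower in IP and in input, and their sums in IP were 909.8 to 1044 CPM in control and 199.6 to 337 CPM in DTR. Macrophage markers were higher in DTR, 5 of 8 in each fraction, with sums of 167 to 264 CPM in DTR input and 43.5 to 73.1 CPM in DTR IP. Mesenchyme markers were higher in DTR IP for 6 of 10 and in DTR input for 2 of 10. Schwann cell and myelin markers were lower, 4 of 7 in input and 2 of 7 in IP, with sums of 2478 to 4461 CPM in Control input and 1285 to 2015 CPM in DTR input, and of 789.6 to 1257 CPM and 573 to 789.5 CPM in the IPs. The part of these cells in the values of Igf1, Igf2, Irs2 or any other member was not tested.

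Per kb of exon, H19 and Igf2 led in every group, and the order of the rest was nearly fixed. In Control input H19 stood at 74.7 ± 5.97 CPM per kb (SD, n = 4), Igf2 at 57.0 ± 2.60, Igf1 at 27.8 ± 3.16, Irs2 at 11.2 ± 0.468, Igf1r at 5.51 ± 0.518, Igf2r at 3.68 ± 0.842, Insr at 1.35 ± 0.227 and Irs1 at 0.950 ± 0.177. The ranges of Igf1r and Igf2r, and those of Insr and Irs1, overlapped there. In Control IP the levels were 1141 ± 289 for H19 and 646 ± 91.7 for Igf2, and the next gene, Igf1, lay 27.1-fold below Igf2 at 23.8 ± 6.37. Its range overlapped with that of Irs2 at 17.9 ± 1.19.

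In DTR IP the order of those neighbours turned without a clear gap: Irs2 stood at 23.7 ± 2.38 CPM per kb and Igf1 at 21.6 ± 4.06, with overlapping ranges. H19 reached 1667 ± 333 and Igf2 859 ± 170.1 CPM per kb in that group. Igf1r followed at 11.2 ± 1.41, Igf2r at 7.23 ± 1.11, Insr at 2.80 ± 0.187 and Irs1 at 0.783 ± 0.141, none overlapping with its neighbour. In DTR input H19 at 92.2 ± 13.7 and Igf2 at 74.2 ± 6.53 overlapped.

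Irs2 over Irs1 was 12.1 ± 2.29 per kb in Control input and 24.4 ± 7.20 in Control IP, and 13.8 ± 4.24 in DTR input and 31.0 ± 5.96 in DTR IP. The fractions did not overlap in either genotype (p = 0.029, exact permutation test, adjusted p = 0.082), although the lowest Control IP ratio, 14.7, nearly met the highest Control input ratio, 14.4. That test took input and IP as independent. Within homogenates the ratio was higher in IP in 4 of 4 pairs of each genotype (p = 0.125, exact sign-flip test). A further adaptor, Irs4, reached at most 9 reads, and the insulin receptor-related receptor Insrr at most 20 reads.

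Genes with the most similar pattern over the 16 libraries were sought by Pearson r of log2 values, which share library and depth. For Igf2 they were H19 (r = 0.997), Ago2 (r = 0.996) and Tnrc6a (r = 0.995), and for H19 they were Igf2, Ago2 (r = 0.996) and Zcchc3 (r = 0.995). For Igf1r they were Jmjd1c (r = 0.980), Mxd4 (r = 0.975) and Bptf (r = 0.972). Igf1 was closest to Fcho2 (r = 0.929), Spin4 (r = 0.928) and Lin7c (r = 0.919), and Irs1 to Sprtn (r = 0.802), Arhgap32 (r = 0.796) and Tacc1 (r = 0.790). Between members, r of Igf2 was 0.945 with Igf1r, 0.934 with Insr, 0.891 with Igf2r and 0.846 with Irs2, but -0.40 with Igf1 and -0.49 with Irs1. These values rest on 4 groups, and most of the spread lies between IP and input.

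The other genes of the pathway were taken from 7 lists of 65 genes, of which 60 were tested. In Control IP against Control input 20 were higher (33.3%) and 16 lower (26.7%), with a median log2 fold change of 0.14. Over all genes tested 19.3% were higher and 20.7% lower. In DTR IP against DTR input 21 were higher (35%) and 13 lower (21.7%), beside 18.6% and 20.5% of all genes. In DTR IP against Control IP 6 were higher and 2 lower (13.3% called), and in DTR input against Control input 6 and 1 (11.7%). These damage shares were near those of all genes, 15.7% and 12.4%.

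The proteins that bind Igf2 mRNA were the one list with every gene higher in IP, 3 of 3 in both genotypes, with a median log2 fold change of 1.65 in control and 1.38 in DTR. The paper had already named Igf2bp1 and Igf2bp3 as enriched in IP of this experiment, as it had Igf2, Igfbp3, Socs1 and Socs3. The list was made with earlier results of these data known, so its count is no independent result. Igf2bp1 had 12.1 ± 2.00 CPM in Control input and 104 ± 18.1 CPM in Control IP, a log2 fold change of 3.05 ± 0.17 (adjusted p = 2.7e-10, limma), and met the criteria of the study. It was higher after damage in input by 1.14 (adjusted p = 0.00013) and did not pass in IP (0.15, adjusted p = 0.61). Igf2bp3 rose in IP by 1.65 in control and in input after damage by 0.57 (adjusted p = 0.0016), and Igf2bp2 was higher in IP by 1.25 (adjusted p = 0.0002).

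The IGF-binding proteins, secreted carriers that hold the ligands in the extracellular space, went in different directions. Of 6 tested, 2 were higher and 2 lower in IP in each genotype. Igfbp3 was higher in Control IP (log2 fold change 1.33, adjusted p = 1.6e-07) and fell by 2.56 on the log2 scale after damage in IP (adjusted p = 8e-11) and fell by 1.85 in input (adjusted p = 4.8e-09), the only gene of these lists to meet the criteria of the study for damage. In CPM it went from 1358 to 224 in IP and from 569 to 150.1 in input. Igfbp7 was lower in Control IP by a log2 fold change of -1.95 (adjusted p = 3e-07), and after damage Igfbp2 and Igfbp7 were higher in IP, by 0.66 (adjusted p = 0.0091) and 0.68 (adjusted p = 0.021).

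Among IGFBP proteases and their inhibitors, Stc1, an inhibitor of the protease PAPP-A, was higher in Control IP by 1.51 (adjusted p = 3.2e-08) and lower in DTR IP than in Control IP, with a log2 fold change of -0.55 (adjusted p = 0.0047). Of 13 tested adaptors and brakes close to the receptor, 4 were higher and 5 lower in Control IP, and none was called after damage in either fraction. The suppressors of cytokine signalling Socs1 and Socs3, which also bind the insulin receptor and IRS proteins, were higher in Control IP by 3.25 (adjusted p = 4.2e-09) and 2.14 (adjusted p = 2e-10) and met the criteria in both genotypes.

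Further down, 2 of 14 PI3K and AKT genes were higher and 4 lower in Control IP. The largest difference was in the AKT phosphatase gene Phlpp2, at 1.94 (adjusted p = 1.7e-07), against -0.87 for Inppl1 (adjusted p = 0.0025). After damage Pik3r1, the regulatory subunit that docks to IRS proteins, was higher in IP by 0.61 (adjusted p = 0.0013), and Pdpk1, the kinase upstream of AKT, was higher in IP by 0.57 (adjusted p = 0.00062) and in input by 0.73 (adjusted p = 5.1e-05). Of 19 TOR, FOXO and GSK3 genes 7 were higher and 4 lower in Control IP, led by Eif4ebp2 at 1.33 (adjusted p = 2.3e-07) and Tsc2 at -1.23 (adjusted p = 0.00011). Rictor and Akt1s1 were higher after damage in both fractions, by 0.49 and 0.58 in IP and by 0.46 and 0.61 in input, and Tsc1 was higher in input by 0.91 (adjusted p = 0.0015).

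**Figure D5:**
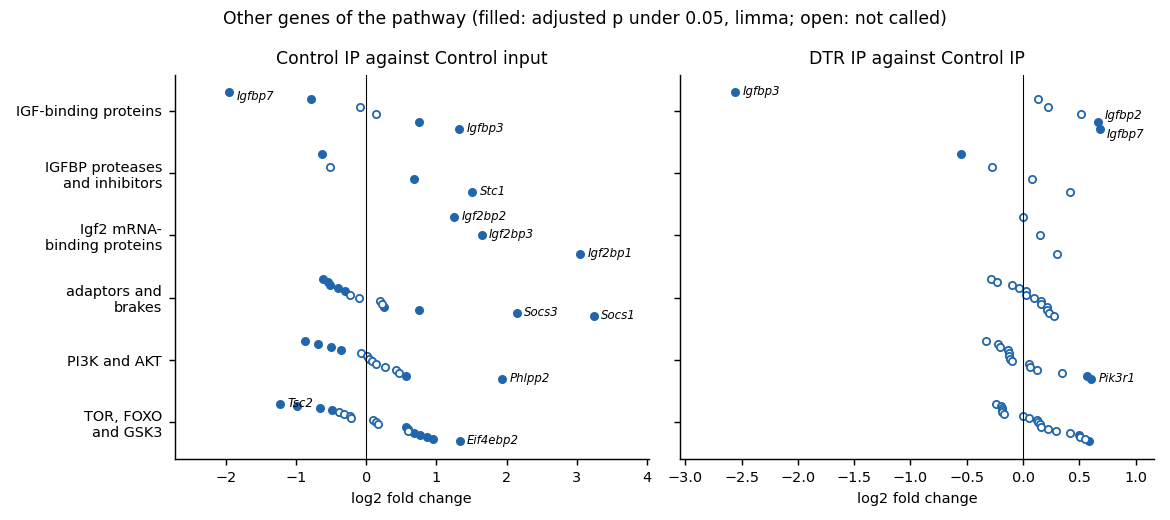
Log2 fold change (horizontal axis) of the tested pathway genes other than members, 1 point per gene in rows by list, for Control IP against Control input (left) and DTR IP against Control IP (right), with filled points for adjusted p under 0.05. All 3 Igf2 mRNA-binding proteins lie to the right of 0 on the left, other lists lie on both sides, and Igfbp3 stands alone at -2.56 on the right.

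Of 8 tested neighbours of Igf2 and H19, 1 was higher and 1 lower in Control IP, and their median log2 fold change was -0.04. The higher one was Igf2os, antisense to Igf2, at 0.317 ± 0.228 CPM in Control input and 0.905 ± 0.229 CPM in Control IP (log2 fold change 0.86, adjusted p = 0.011). Igf2os had at most 41 reads in a library and passed the filter on low values only through Control IP, where it was high. Its call in control is therefore not independent of the filter. In DTR it was also called higher in IP (0.68, adjusted p = 0.038). It shares 98 exonic bases with Igf2. Since the strand setting of the counting is not given in the sources used here, reads of this overlap could belong to either gene or be left out of both counts. The lower one was Th, the tyrosine hydroxylase gene, at -1.46 (adjusted p = 0.021). Its values overlapped, with 0.653 to 4.65 CPM in Control input and 0 to 1.31 CPM in Control IP. Th passed the filter only through Control input, where it was high, so this call is not independent of the filter either.

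Near Igf2r, 0 of 3 tested genes were called between fractions. The antisense RNA Airn had a mean of 9.34 CPM over all libraries and shares no exonic base with Igf2r. Slc22a3, an organic cation transporter gene of that cluster, fell by 2.91 on the log2 scale after damage in IP (adjusted p = 6.5e-08) and fell by 2.44 in input (adjusted p = 7.3e-07), whereas Igf2r was called in neither. In Irs1, 30.9% of the exonic bases lie opposite Gm9747, which was at 0 in all libraries. How the counting treated reads of such shared bases is not given in the sources used here. If they were left out, the level of Irs1 per kb is understated and Irs2 over Irs1 is overstated, which was not tested.

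Other long noncoding RNAs were listed beside H19. Of 6 that were tested, 2 were higher in Control IP and 3 in DTR IP, none of which met the criteria of the study. Kcnq1ot1, an imprinted nuclear RNA, was highest of these at 1.49 (adjusted p = 0.0023) in control and 1.79 (adjusted p = 0.00055) in DTR, and Mirg had 0.90 (adjusted p = 0.00087) and 1.26 (adjusted p = 3.8e-05). Malat1 was called in DTR alone, at 1.04 (adjusted p = 0.014), with 0.48 (adjusted p = 0.25) in control, and Neat1 rose in IP after damage by 0.93 (adjusted p = 0.045). Whether H19 differed from these RNAs was not tested.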

How the data were processed

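RNA of 8 inputs and 8 IPs was read by the authors with SMART-Seq v4 libraries, aligned to GRCm38 with HISAT2 2.0.4 and counted with HTSeq per the study's methods, whereas the submitters' processing notes name TopHat. The annotation release and strand setting are not given in the sources used here. The authors deposited 1 table of CPM per library. Whole reads were recovered from the CPM steps, and each column sums to 1000000. All values lay within 0.01 read of a whole number, except in Control input replicate 3, where 99.996% of the values above 0 did. Depth was 28089836 to 41966310 reads, and intervals cover only the spread between replicates. They used a normal quantile of the SE, so they are somewhat narrower than the t distribution of limma would give.

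Of 50316 listed genes, 2587 were NA in every library. CPM were quantile-normalized, 0.5 was added and log2 values of 16994 genes were fitted by group means with limma 3.58.1 (trend, R 4.3.3), with Benjamini-Hochberg adjustment over all genes tested and an adjusted p under 0.05 as a call. Fold changes are on this log2(value + 0.5) scale and understate changes of low genes. Levels per kb used merged exons of GENCODE M21, and ratios were tested by exact permutation (scipy 1.17.1). Damage calls by the study's criteria needed an absolute log2 fold change of 1 and a separation above 1.5. Scripts were tested on simulated data. edgeR 4.0.16 and DESeq2 1.42.0 on recovered reads, a replicate block, a length correction, other scalings, filters and pseudocounts, and leaving out each library were tried. Input and IP of a number came from one homogenate, and deviations of same-numbered samples correlated by 0.288 to 0.559 in every pair of groups, also between control and DTR, where no source states a pairing.

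Members and lists were chosen with earlier results of these data known. Named are all members, list genes that met the study's criteria or, otherwise, up to 4 with the largest called change, the most abundant gene of marker lists, and the 3 genes closest in pattern to Igf2, H19, Igf1, Igf1r and Irs1. The fourth replicate carries the number 6 in the file headers. Sequences of microRNAs and promoters are from RefSeq (GRCm38.p6), where 6 members had promoter entries, and the probe is from the study's probe table.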

Additional observations from a re-analysis of the deposited data

Results flagged for a closer look

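Of 32 groups of 4 CPM values (8 members in 4 groups), 1 held a value far from the rest. In DTR input, Irs1 had 17.1 CPM in replicate 4 and 8.66 to 9.39 CPM in the other 3 libraries, and the gap to the nearest value took 0.913 of the whole range, above Dixon's 95% critical value for 4 samples. Chance flags about 1 in 20 such groups. Without that library the log2 fold change of Irs1 in DTR input against Control input was 0.05 in place of 0.27, and in DTR IP against DTR input it was -0.32 in place of -0.54.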

How the results depend on the processing

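In each of the 2 comparisons of IP with input, the 6 called members were called and higher under every alternative. The replicate block, besides the values given above, moved the genes called in DTR IP against Control IP from 2674 to 4172 and in DTR input against Control input from 2104 to 3202, where members called went from 1 to 2, and it changed no other member's call. Members called in DTR IP against Control IP were 1 in place of 2 with no filter on low values, with the compared groups only, with gene length correction and with edgeR, and 1 to 3 when single libraries were left out. The members behind the count changed as well: with edgeR the 1 was H19, and with DESeq2 the 2 were H19 and Irs2. In DTR input against Control input the members called were 2 with the compared groups only and with gene length correction, and 1 to 2 when single libraries were left out. Igf1r in DTR IP against Control IP also missed the threshold without quantile normalization (adjusted p = 0.063), with median centring (0.1), with no filter (0.058) and with the compared groups only (0.091). Igf2 in DTR input was called after length correction (0.44, adjusted p = 0.024). H19 in DTR IP was called with median centring (0.52, adjusted p = 0.034) and edgeR (0.48, adjusted p = 0.049). Median centring also called Igf1 (-0.43, adjusted p = 0.049) and Irs1 (-0.60, adjusted p = 0.045) lower in IP of DTR mice. The causes were not tested.

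Directions that turned were all of uncalled values: Igf1 in DTR against Control input with DESeq2 (-0.0172), Igf2 in the difference of the damage changes without quantile normalization (0.0259), and, in DTR IP against Control IP, Insr with length correction (-0.0287) and Irs1 without quantile normalization (0.0169). Leaving out single libraries turned 25 uncalled values. Igf1 ranged from -0.2992 to 0.0252 in Control IP against input, from -0.3061 to 0.0302 in DTR against Control IP and from -0.0234 to 0.0778 in DTR against Control input. Irs1 in DTR against Control IP ranged from -0.181 to 0.1104, and Igf2r in DTR against Control input from -0.0159 to 0.2399. In the difference of the damage changes H19 ranged from -0.1214 to 0.1605, Insr from -0.1344 to 0.0561, Igf2r from -0.0076 to 0.2486 and Irs2 from -0.149 to 0.028.

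With the longest transcript in place of merged exons the level of Igf2 in Control IP was 782 CPM per kb in place of 646, and its share of ligand level in Control input was 63.9% in place of 67.2%. Reads limit only Irs1, at 153 to 562 per library. A replicate block on the ratios, an exact sign-flip test within homogenates chosen after seeing the data, cannot go below p = 0.125 with 4 pairs. H19 over Igf2, Igf2 over Igf1 and Irs2 over Irs1 were higher in IP in 4 of 4 pairs of each genotype (adjusted p = 0.179 over 10 tests).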
